A study of Mus musculus with 12 samples.

Results

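The estrogen-related receptors, the PGC-1 coactivators and the factors that work beside them in the control of mitochondrial genes were followed through 12 libraries of mouse gastrocnemius muscle. The 8 genes were taken by symbol: the nuclear receptor genes Esrra (ERRα) and Esrrg (ERRγ), the coactivator genes Ppargc1a (PGC-1α) and Ppargc1b (PGC-1β), Perm1, and the factor genes Nrf1, Gabpa and Tfam. All 8 were found among the 10475 genes of the deposited table and among the 10415 genes that were tested, and no other gene was taken in. They were selected on the TPM of Esrra, which earlier work on these libraries had shown to be low in transgenic muscle at ZT0, so that the genotype difference of Esrra there is given as a description, with no test. The question asked of the other 7 genes was whether they went down in the same libraries as Esrra.

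All mice were 8-week-old C57BL/6 animals on normal chow under 12 h of light and 12 h of dark. The transgenic mice (TG) overexpress E4BP4, a repressor of transcription with ties to the circadian clock, in liver only, and wild-type mice (WT) were their controls. The labels do not name the promoter that drives the transgene, and muscle itself is not the tissue it is meant for. Gastrocnemius, a calf muscle made mostly of fast fibres, was collected at lights on (Zeitgeber time 0, ZT0) and at lights off (ZT12). Each of the groups WT ZT0, TG ZT0, WT ZT12 and TG ZT12 held 3 libraries. The labels do not say that each library came from its own mouse, so that p-values measure the spread between these libraries, which may be technical.

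ERRα and ERRγ are orphan nuclear receptors that bind a short DNA element before genes of oxidative phosphorylation, the citric acid cycle and fatty acid oxidation, and they are active when a PGC-1 coactivator is bound to them. PGC-1α answers to exercise, cold and fasting in muscle, while PGC-1β is thought of as steadier. Perm1 is a muscle-enriched protein induced by PGC-1 and ERR that in turn favours part of their program. NRF1 and GABP, of which GABPα is the DNA-binding subunit, switch on respiratory chain genes and Tfam, and TFAM coats and transcribes mitochondrial DNA.

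The unit of abundance was TPM, a share of transcripts that is scaled for transcript length and library size, so that levels may be compared between genes. Reads recovered from these values summed to 9213000 to 13150000 per library at ZT0 and to 13130000 to 20160000 at ZT12. The median TPM of a library lay between 5.63 and 7.25 in 10 libraries, while it was 9.26 in WT ZT0 replicate 2 and 4.96 in TG ZT12 replicate 1. Muscle was checked by its markers: the fibre genes Acta1, Ckm, Des, Myog and Mb summed to 42680 to 49270 TPM in every library, and 8 fast fibre genes to 62080 to 75570 TPM. Slow fibre genes (8 of 8 in the table) ranged from 163.5 TPM in WT ZT0 replicate 3 to 893.5 TPM in WT ZT12 replicate 3, and red cell genes (5 of 5) from 86.2 to 4565 TPM. The red cell sum was between 1526 and 4565 TPM in replicates 1 and 2 of both ZT12 groups and at most 176.3 TPM in the other 8 libraries. None of 6 lymphocyte markers and 1 of 5 hepatocyte markers was listed. At Esrra and its neighbours Trmt112 and Prdx5, 2 libraries, called the doubted libraries here, went against the others of their genotype label. WT ZT12 replicate 3 was low with 5 of the 6 TG libraries, and TG ZT12 replicate 3 was high with 5 of the 6 WT libraries. Labels were kept as given, and whether these 2 libraries carry the genotype on their labels was not tested; if they did not, the ZT12 comparisons and the values within groups below would change. Values without both are given for the genotype differences at ZT12 and the slopes of the regulators. Esrra is left out of these, since the 2 libraries were singled out on its level. Such values are also given for Pdk4 and for the slopes of the genes linked to PGC-1α. For the counts and medians of the other gene lists, which rest on these libraries too, no values without both are given. In bulk muscle, fewer cells of a type and less RNA per cell cannot be told apart, and the part of these cell mixtures in the results below was not tested.

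Sequence before the start site is shown for 4 of the genes: for Esrra, the gene whose level differed most between genotypes, and for Perm1, Tfam and Gabpa, the genes in whose windows a searched motif was found. The RefSeq table (GRCm38.p6, the build called mm10 in the files) gave 11 start sites for 7 of the 8 genes, of which 3 windows (250 bases before to 50 after the start) held a motif. Each line below gives the 250 bases before the start, 5′ to 3′ on the gene's own strand, with the matched letters in capitals.
Esrra (chr19:6921809-6922058, minus strand): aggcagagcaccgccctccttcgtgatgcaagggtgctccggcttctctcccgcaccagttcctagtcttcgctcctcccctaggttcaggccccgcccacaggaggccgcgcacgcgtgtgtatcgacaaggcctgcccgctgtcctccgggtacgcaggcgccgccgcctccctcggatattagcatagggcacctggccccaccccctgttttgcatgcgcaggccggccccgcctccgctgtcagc
Perm1 (chr4:156215677-156215926, plus strand): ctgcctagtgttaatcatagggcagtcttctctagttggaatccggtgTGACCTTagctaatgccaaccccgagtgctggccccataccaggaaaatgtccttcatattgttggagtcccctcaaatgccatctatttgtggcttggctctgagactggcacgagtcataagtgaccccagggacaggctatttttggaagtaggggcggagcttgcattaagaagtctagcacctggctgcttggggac
Tfam (chr10:71238045-71238294, minus strand): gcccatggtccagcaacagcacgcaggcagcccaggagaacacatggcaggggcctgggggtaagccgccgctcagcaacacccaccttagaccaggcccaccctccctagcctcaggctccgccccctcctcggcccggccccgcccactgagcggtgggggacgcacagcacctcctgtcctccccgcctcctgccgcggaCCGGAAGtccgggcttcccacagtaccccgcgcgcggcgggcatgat
Gabpa (chr16:84834874-84835123, plus strand): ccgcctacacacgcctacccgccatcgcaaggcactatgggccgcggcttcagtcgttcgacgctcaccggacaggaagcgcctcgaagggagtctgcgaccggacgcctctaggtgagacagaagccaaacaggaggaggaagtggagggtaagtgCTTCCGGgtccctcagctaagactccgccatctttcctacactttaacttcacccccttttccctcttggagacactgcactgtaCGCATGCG

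In Perm1 the capitals mark the core of an ERR element, AAGGTCA, read on the strand opposite to the gene from position -202 to -196 (the base before the start is -1). This core was present on either strand in 4.72% of the 32851 promoter windows of the table, and the longer TCAAGGTCA, which contains it, in 0.423%. In Tfam they mark CCGGAAG, the letters searched for GABP and other ETS factors, at -47 to -41, which 8.86% of all windows held. In Gabpa they mark the same element on the opposite strand at -93 to -87 and the palindrome CGCATGCG, searched for NRF1, at -8 to -1. The NRF1 letters stood in 1.87% of windows and overlap none of the other motifs. In Esrra none of the 4 motifs was found in this window, nor in those of Esrrg, Ppargc1a and Nrf1. The window of Ppargc1a (chr5:51567676-51567975, minus strand) lies upstream of the measured transcript, which begins at 51553921. The sequence just before that start was therefore not searched. These are matches of letters and not sites of binding.

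Levels were ordered as follows over the 12 libraries. Perm1 (mean 50.2 TPM, 33.2 to 70.4) and Esrra (mean 45.5 TPM, 27.2 to 62.9) were highest, and their ranges overlapped. Tfam came next at 12.3 TPM (9.63 to 13.4), apart from the genes above and below it. Gabpa had 7.22 TPM (6.01 to 9.07), and its range met that of Ppargc1a only at one end. Ppargc1a (4.09 TPM), Nrf1 (3.06 TPM), Esrrg (2.62 TPM) and Ppargc1b (2.54 TPM) lay lowest, with ranges that overlapped one another. The lowest counts of recovered reads behind single values were 65 for Nrf1, 82 for Ppargc1b and 118 for Esrrg, against 865 for Esrra and 1933 for Perm1. The coefficient of variation was 33.3% for Esrra, 32.1% for Nrf1, 27.7% for Esrrg, 23.4% for Ppargc1a, 21.4% for Perm1, 19.9% for Ppargc1b, 13.1% for Gabpa and 9.22% for Tfam. Tfam was thus the steadiest of the 8 genes.

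**Figure D1:**
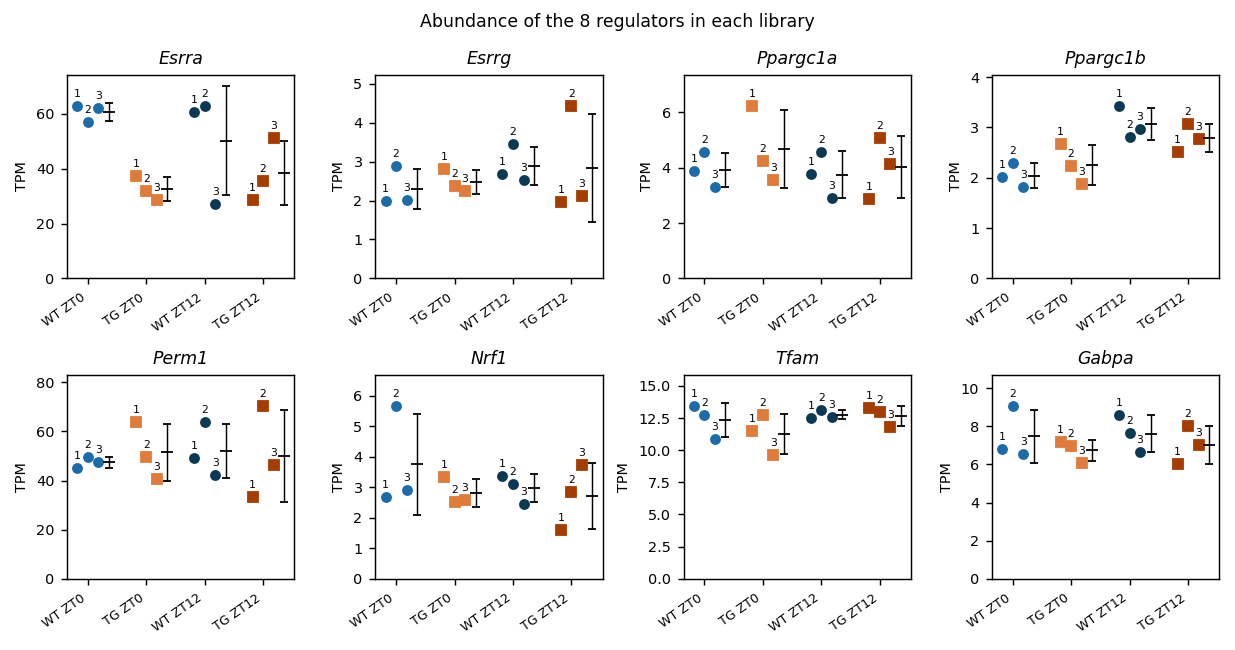
TPM (linear axes from 0) of the 8 genes in WT (circles) and TG (squares) at ZT0 and ZT12. Each point is a library with its replicate number, and the black bar and whiskers beside each group are its mean ± SD (n = 3). Esrra of WT ZT0 (56.9 to 62.9) lies apart from TG ZT0 (28.7 to 37.2), while the groups of the other 7 genes overlap between genotypes.

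Esrra (chr19:6910977-6921808, minus strand, mm10), the receptor gene, stood at 62.9, 56.9 and 61.9 TPM in WT ZT0 and at 37.2, 31.7 and 28.7 TPM in TG ZT0. At ZT12 it stood at 60.7, 62.7 and 27.2 TPM in WT and at 28.6, 35.6 and 51.2 TPM in TG. WT and TG did not overlap at ZT0 and did at ZT12, where WT replicate 3 was the lowest of the 12 libraries and TG replicate 3 was above every other TG library. Group means were 60.6 ± 3.19, 32.6 ± 4.32, 50.2 ± 19.9 and 38.5 ± 11.6 TPM (SD, n = 3) in WT ZT0, TG ZT0, WT ZT12 and TG ZT12. On the log2(TPM + 1) scale TG minus WT was -0.88 (SE 0.28) at ZT0, which is the difference that led to the choice of the genes, and -0.60 (SE 0.20) over both times. As background for the former, 3.22% of the tested genes were lower in all TG ZT0 than in all WT ZT0 libraries, and limma called no gene for genotype at ZT0 (0% of those tested). Unadjusted, 117 genes (1.12%) had p under 0.05 there, and limma-voom called 0. In the other direction 1.4% of genes were higher in all TG ZT0 libraries.

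At ZT12 the Esrra difference was -0.32 (SE 0.28, 95% interval -0.94 to 0.29), with an adjusted p of 0.9997 in limma. It was -0.71 without WT ZT12 replicate 3, -0.55 without TG ZT12 replicate 3, -0.14 without WT ZT12 replicate 1, -0.12 without WT ZT12 replicate 2 and -0.14 without TG ZT12 replicate 1. The difference at ZT12 minus that at ZT0 was 0.56 (SE 0.40), which is given without a test because it contains the ZT0 difference. The authors' deposited table gives a log2 fold change of -0.27 for Esrra at ZT0 and of -0.069 at ZT12, with adjusted p 0.9999 at each time. In that table the other 7 genes had log2 fold changes from -0.018 to 0.079 at ZT0 and from -0.0057 to 0.011 at ZT12, all with adjusted p 0.9999. These fold changes are another measure than the differences of log2(TPM + 1), and that of Esrra was nearer to 0 at both times. How they were scaled was not examined, so that their sizes cannot be set against the differences given here.

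Sorted by TPM, Esrra fell into separate sets of 6 libraries, 27.2 to 37.2 and 51.2 to 62.9 TPM, with a step of 1.38-fold between them. The lower set held all 3 TG ZT0 libraries, TG ZT12 replicates 1 and 2, and WT ZT12 replicate 3. The same 6 libraries were lowest in Trmt112, a small partner protein of RNA and protein methyltransferases, and in Prdx5, a mitochondrial and peroxisomal thiol peroxidase, which are the next genes beyond the 3′ end of Esrra. Trmt112 had 9.46 to 10.9 TPM in them and 18.0 to 24.6 TPM in the other 6, a step of 1.64-fold. Prdx5 had 57.2 to 82.7 against 116 to 149 TPM, a step of 1.41-fold. In all, 7 of 10414 genes (0.0672%) had the 6 libraries of low Esrra as their own 6 lowest. How many would do so in a random order of libraries was not computed. Trmt112 and Prdx5 were among the 7, and where those not named here lie is not given. Rps6ka4 (chr19:6829084-6840627), named after its values were seen, was also among them. This gene lies beyond Prdx5 and starts more than 50 kb from the Esrra start. It had 1.76 to 2.89 TPM in the 6 libraries and 3.89 to 8.01 TPM in the others, though its widest step lay elsewhere.

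Of the 6 tested genes whose start lies within 50 kb of the Esrra start, Trmt112 (r = 0.946) and Prdx5 (r = 0.926) varied most like Esrra over the 12 libraries. Plcb3 (0.579), Gpr137 (0.442) and Bad (-0.256), on the other side of Esrra, varied less like it. Mir6990, whose annotation of 91 bases lies inside Esrra on the same strand, had 0.611. It rested on 3 to 14 recovered reads a library, so that its r says little. These correlations are descriptions over the same 12 libraries, they include the step between the separate sets, and they carry no p. TG minus WT at ZT0 was -1.05 for Trmt112 and -1.09 for Prdx5 (log2), of the size seen in Esrra. At ZT12 it was -0.45 and -0.37. The files place Esrra and Trmt112 on opposite strands with their 3′ ends overlapping by 50 bases, and the library kit keeps no strand, so that reads in the overlap cannot be told apart. By the same coordinates Prdx5 is separated from Trmt112 by 52 bases and does not overlap Esrra. The RefSeq window around the start of Prdx5 (chr19:6910057-6910356), however, lies wholly inside Trmt112 (chr19:6909698-6911026), on the opposite strand. Whether reads of Prdx5 and Trmt112 are fully apart is therefore not settled. Of the other 7 regulators none overlapped another listed gene.

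**Figure D2:**
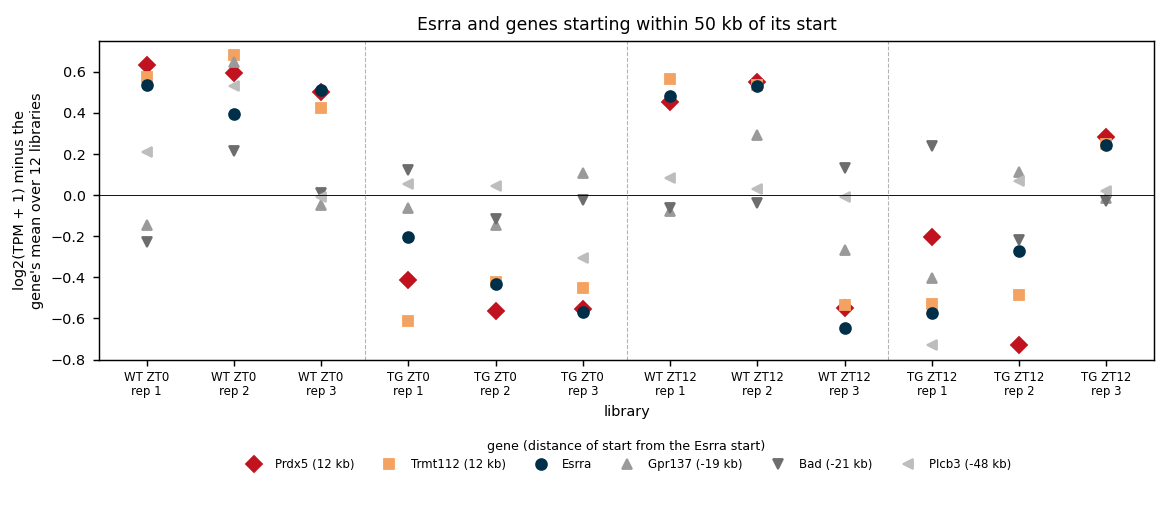
Difference of log2(TPM + 1) from the gene's own mean, by library, for Esrra and 5 genes whose starts lie within 50 kb of its start (distances in the legend are positive downstream of Esrra; Mir6990 is left out). Esrra, Trmt112 and Prdx5 lie below 0 in the same 6 libraries, while the grey points of Gpr137, Bad and Plcb3 do not divide that way.

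No difference between the genotypes was shown for the other 7 regulators, and WT and TG overlapped in each of them at both times. At ZT12 limma called 0 of the 8 genes, and 0% of the 10415 tested genes, for genotype (unadjusted p under 0.05 in 99 genes, 0.951%; 0 called by limma-voom). Of the tested genes 4.26% were lower and 0.528% higher in all TG ZT12 than in all WT ZT12 libraries, and none of the 8 was. At ZT0 the 7 differences ran from -0.27 (Nrf1, SE 0.26) to 0.19 (Ppargc1a, SE 0.22), where the median of all tested genes was -0.10. At ZT12 they ran from -0.13 (Nrf1, SE 0.26) to 0.070 (Ppargc1a, SE 0.22), with a median of -0.073 over all tested genes. The change of the genotype difference between the times was called in 0 of the 7 genes, against 0% of all tested genes (unadjusted p under 0.05 in 69 genes, 0.663%; 0 called by limma-voom). With median-of-ratios scaling the median of all genes moved from -0.10 to -0.0020 at ZT0, so that differences of about this size depend on the scaling. Without both doubted ZT12 libraries the 7 differences at ZT12 ran from -0.42 (Nrf1) to 0.032 (Tfam), with Ppargc1a at -0.090 and none called. The intervals leave room for change: for Ppargc1a at ZT12, for example, the 95% interval ran from -0.42 to 0.56.

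Esrrg (chr1:187609006-188214884, plus strand), the receptor gene closest in kind to Esrra, had 1.98, 2.88 and 2.00 TPM in WT ZT0 and 2.82, 2.38 and 2.23 TPM in TG ZT0. At ZT12 it had 2.67, 3.45 and 2.53 TPM in WT and 1.95, 4.43 and 2.11 TPM in TG. The highest value of all was thus in TG ZT12 replicate 2, one of the libraries in which Esrra was low, and the groups overlapped at both times. TG minus WT was 0.088 (SE 0.23) at ZT0 and -0.068 (SE 0.23, adjusted p 0.9997 in limma) at ZT12.

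Ppargc1a (chr5:51454249-51553921, minus strand), which encodes PGC-1α, had 3.89, 4.56 and 3.31 TPM in WT ZT0 and 6.24, 4.24 and 3.54 TPM in TG ZT0. Its values at ZT12 were 3.78, 4.57 and 2.91 TPM in WT and 2.86, 5.09 and 4.12 TPM in TG. The highest library was TG ZT0 replicate 1, and the groups overlapped throughout. TG minus WT was 0.19 (SE 0.22) at ZT0 and 0.070 (SE 0.22) at ZT12, and ZT12 minus ZT0 over both genotypes was -0.12 (SE 0.16, adjusted p 0.9969 in limma).

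Ppargc1b (chr18:61298136-61400431, minus strand), the gene of PGC-1β, showed the clearest difference between times of the 8 genes, though it did not pass the adjustment over all genes. It had 2.02, 2.30 and 1.82 TPM in WT ZT0 against 3.43, 2.82 and 2.97 TPM in WT ZT12, and 2.66, 2.23 and 1.87 TPM in TG ZT0 against 2.52, 3.07 and 2.77 TPM in TG ZT12. The times did not overlap in WT, as was so, in the same direction, for 5.62% of the tested genes (5.2% in the other direction). They overlapped in TG, where 3.21% of genes were higher and 3.87% lower at ZT12 without overlap. ZT12 minus ZT0 was 0.42 (SE 0.15, adjusted p 0.7004) in WT, 0.22 (SE 0.15, adjusted p 1) in TG and 0.32 (SE 0.11, 95% interval 0.091 to 0.55, unadjusted p 0.0102, adjusted p 0.3255) over both genotypes, all from limma. With median-of-ratios scaling the last was 0.35 with an adjusted p of 0.0456, and over 21 alternative settings the adjusted p ran from 0.0456 to 0.820 and the difference from 0.15 to 0.45. Library depth also differed between the times, and its part in this difference was not tested. By contrast the genotypes overlapped at both times.

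Over both genotypes limma called 92 genes (0.883% of the tested genes) for time, 37 higher (0.355%) and 55 lower (0.528%) at ZT12, and 0 of the 8 regulators. Within WT it called 12 genes (0.115%), 2 of them higher (0.0192%) and 10 lower (0.096%), and within TG 16 genes (0.154%), 4 higher (0.0384%) and 12 lower (0.115%), again 0 of the 8. The unadjusted p was under 0.05 in 708 genes (6.8%) over both genotypes, and of the 8 in Ppargc1b alone. Limma-voom called 194 genes for time over both genotypes, none of them a regulator of this group.

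Perm1 (chr4:156215927-156221307, plus strand), which PGC-1 and ERR induce in muscle, had 45.1, 49.4 and 47.7 TPM in WT ZT0 and 63.9, 49.7 and 40.8 TPM in TG ZT0. At ZT12 it had 49.2, 63.9 and 42.4 TPM in WT and 33.2, 70.4 and 46.3 TPM in TG. Both the highest and the lowest library belonged to TG ZT12, and Esrra was low in each of them. TG minus WT was 0.094 (SE 0.24) at ZT0 and -0.099 (SE 0.24, adjusted p 0.9997 in limma) at ZT12.

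Nrf1 (chr6:30047988-30145197, plus strand), the gene of nuclear respiratory factor 1 and not the unrelated Nfe2l1, had 2.67, 5.66 and 2.92 TPM in WT ZT0 and 3.32, 2.52 and 2.58 TPM in TG ZT0. At ZT12 it had 3.36, 3.12 and 2.45 TPM in WT and 1.59, 2.84 and 3.74 TPM in TG. The 5.66 TPM came from WT ZT0 replicate 2, the library of the highest median TPM, and the 1.59 TPM from TG ZT12 replicate 1, that of the lowest. TG minus WT was -0.27 (SE 0.26) at ZT0 and -0.13 (SE 0.26) at ZT12, and without both of these libraries it was 0.11 at ZT12.

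Gabpa (chr16:84835124-84863778, plus strand), the DNA-binding subunit of GABP, had 6.80, 9.07 and 6.56 TPM in WT ZT0 and 7.16, 6.95 and 6.10 TPM in TG ZT0. Values at ZT12 were 8.59, 7.63 and 6.64 TPM in WT and 6.01, 8.03 and 7.05 TPM in TG. Here too WT ZT0 replicate 2 was highest and TG ZT12 replicate 1 lowest, and all groups overlapped. TG minus WT was -0.12 (SE 0.16) at ZT0 and -0.10 (SE 0.16) at ZT12.

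Tfam (chr10:71225477-71238044, minus strand), the packaging and transcription factor of mitochondrial DNA, had 13.4, 12.8 and 10.9 TPM in WT ZT0 and 11.5, 12.7 and 9.63 TPM in TG ZT0. At ZT12 it had 12.5, 13.1 and 12.6 TPM in WT and 13.3, 13.0 and 11.8 TPM in TG. TG ZT0 replicate 3 was lowest and the groups overlapped. The difference TG minus WT at ZT12 was -0.0089 (SE 0.13, 95% interval -0.29 to 0.27), the narrowest interval of the 8 genes for this comparison, and its sign turned under other scalings.

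**Figure D3:**
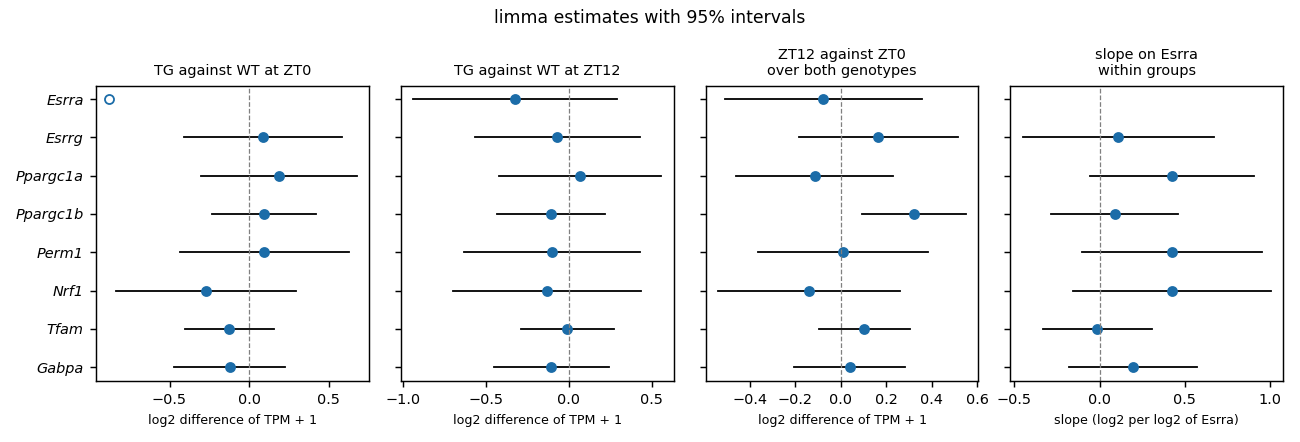
Estimates (points) and 95% intervals (lines) from limma for the 8 genes: TG minus WT at ZT0 and at ZT12, ZT12 minus ZT0 over both genotypes (log2 differences of TPM + 1) and the slope on Esrra within groups (log2 change per log2 change of Esrra; no value for Esrra itself). Esrra at ZT0 (open point, no interval) is the difference that chose the genes. Of the intervals drawn, that of Ppargc1b for time (0.091 to 0.55) leaves out 0 before adjustment over all genes.

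Whether the 7 genes followed Esrra was then looked at across libraries. Of the 6 lowest libraries of each gene, 3 were among the 6 of low Esrra for Esrrg, Ppargc1a, Ppargc1b, Perm1 and Tfam, 4 for Gabpa and 5 for Nrf1. At least 3 were shared by 87.2% of the 10414 other tested genes, at least 4 by 39.2% and at least 5 by 3.35%. For 5 of the 7 genes the share was therefore that of most genes, and Nrf1, whose lowest 6 included all of the 6 but TG ZT0 replicate 1, shared the most. The highest of its 6 lowest values (2.84 TPM, 108 reads, TG ZT12 replicate 2) lay close to the next (2.92 TPM, 93 reads, WT ZT0 replicate 3). Nrf1 also varied with the median TPM of the library (r = 0.856). None of the 7 had the same 6 lowest libraries as Esrra, as Trmt112 and Prdx5 did.

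**Figure D4:**
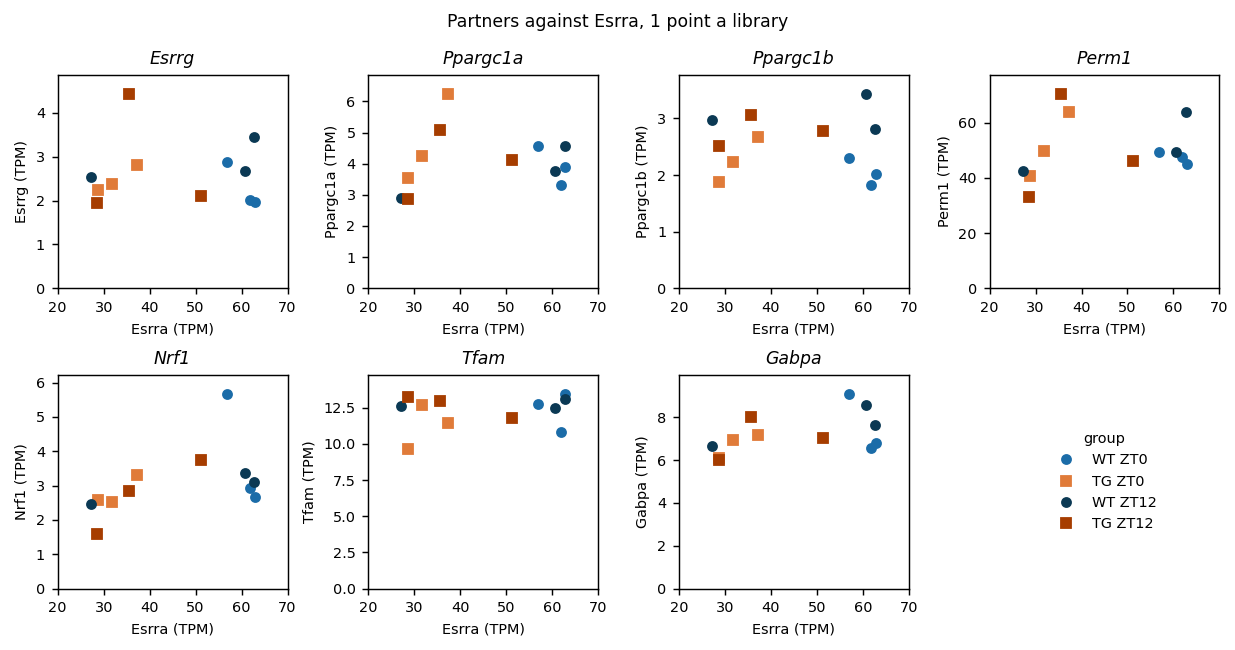
TPM of the 7 other genes (vertical axes from 0) against TPM of Esrra (horizontal axis from 20 to 70), 1 point a library, coloured by group. Esrra leaves a gap between 37.2 and 51.2 TPM, and the ranges of each partner on either side of it overlap, while within the lower set Ppargc1a and Perm1 are higher where Esrra is higher.

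Because Esrra formed separate sets, the 7 partners are given no correlation with it over all 12 libraries, and correlations within the sets are descriptions. Within the 6 libraries of low Esrra, Pearson's r with Esrra was 0.973 for Ppargc1a (Spearman's rho 0.943), 0.897 for Perm1 (0.771), 0.785 for Gabpa (0.771), 0.695 for Nrf1 (0.886), 0.674 for Esrrg (0.6), 0.301 for Ppargc1b (0.143) and 0.077 for Tfam (-0.143). Within the 6 libraries of high Esrra it was -0.26 for Ppargc1a, 0.342 for Perm1, -0.114 for Gabpa, -0.555 for Nrf1, 0.173 for Esrrg, -0.242 for Ppargc1b and 0.285 for Tfam. Ppargc1a was thus higher along with Esrra in one set, from 2.91 and 2.86 TPM at an Esrra of 27.2 and 28.6 TPM to 5.09 and 6.24 TPM at 35.6 and 37.2 TPM, and not in the other. The libraries share their overall composition with these values, and the difference between the sets was not tested. The share of all genes with such an r within a set was not counted. The lower set holds the doubted WT ZT12 replicate 3 and the upper set the doubted TG ZT12 replicate 3, and r without them was not computed.

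With the 4 group means taken out, the slope of each gene on Esrra (log2 per log2) was fitted in limma over 10414 genes. Slopes were 0.42 for Ppargc1a (SE 0.22, 95% interval -0.058 to 0.90, adjusted p 0.9491), 0.42 for Perm1 (SE 0.24, adjusted p 0.9491) and 0.42 for Nrf1 (SE 0.26, adjusted p 0.9491). Gabpa had 0.19 (SE 0.17), Esrrg 0.11 (SE 0.25), Ppargc1b 0.087 (SE 0.17) and Tfam -0.014 (SE 0.15). None of the 7 passed, as 0% of all genes passed (unadjusted p under 0.05 in 162 genes, 1.56%, none of the 7 among them, and 0 called by limma-voom). The median slope of all genes was 0.11, with 70.8% of them above 0, and it became 0.0054 under median-of-ratios scaling, where Esrrg turned to -0.10 and Tfam to 0.023. WT ZT12 replicate 3 held 45.1% of the within-group sum of squares of Esrra, TG ZT12 replicate 3 15.1% and WT ZT12 replicate 2 12.7%, so that the slope rested mostly on few libraries. Without WT ZT12 replicate 3 the slopes of Ppargc1a, Perm1 and Nrf1 were 0.58, 0.59 and 0.78, without TG ZT12 replicate 3 they were 0.51, 0.58 and 0.29, and without TG ZT12 replicate 1 they were 0.32, 0.24 and 0.26. Without both doubted libraries, a setting chosen after the data were seen, they were 1.66 (SE 0.66), 2.20 (SE 0.54) and 0.53 (SE 0.92). In that fit Esrrg had 1.21 (SE 0.78), Ppargc1b 0.61 (SE 0.60), Gabpa 0.42 (SE 0.61) and Tfam 0.23 (SE 0.50), beside a median of 0.41 over all genes. Before adjustment, the 95% intervals of Perm1 (0.98 to 3.43) and Ppargc1a (0.15 to 3.16) left out 0, and those of the other genes included it. The adjusted p of the 7 slopes was then 0.6304 to 0.9121 in limma, and 0 genes were called. The size of the slopes thus depends on these 2 libraries.

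Pairs among the partners were described in the same way. Of 21 pairs without Esrra, Perm1 with Ppargc1a had the highest correlation over the 12 libraries (r = 0.85, rho 0.881), which was 0.783 without the 2 libraries farthest from the median of Ppargc1a and 0.91 with the group means taken out. Of all other tested genes 0.279% had a higher r with Ppargc1a than Perm1 had. Esrrg with Perm1 followed (r = 0.825, rho 0.811, 0.633 without the 2 farthest), with 1.47% of genes above Perm1. Nrf1 with Gabpa had r = 0.781 (rho 0.762), which was 0.497 without the 2 farthest libraries, and 21.7% of genes had a higher r with Nrf1. The lowest was Nrf1 with Tfam, at -0.054. Levels also varied with the median TPM of the library, with r of 0.873 for Gabpa, 0.856 for Nrf1, 0.595 for Esrrg, 0.572 for Ppargc1a and 0.56 for Perm1, against 0.37 for Esrra, 0.282 for Tfam and 0.216 for Ppargc1b. Its part in these correlations was not tested, and no p is given for any of them.

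**Figure D5:**
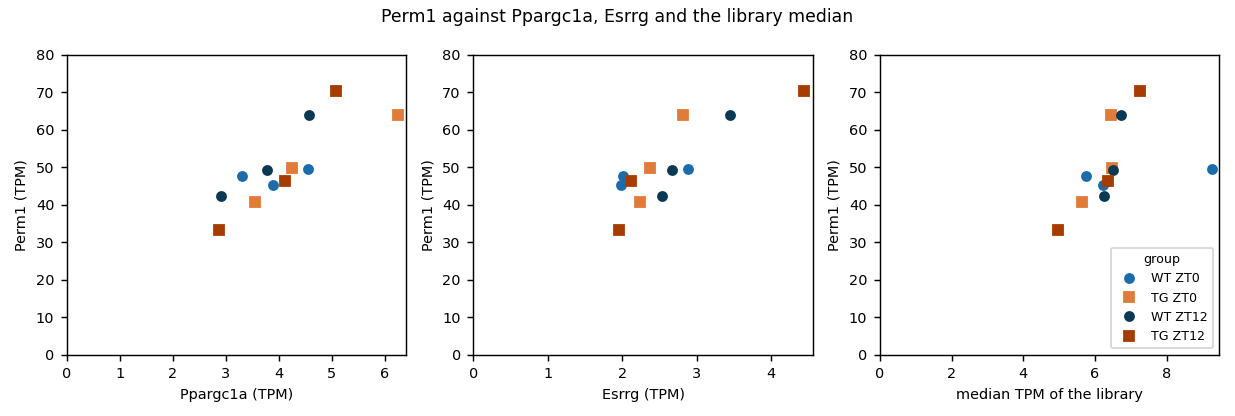
TPM of Perm1 against TPM of Ppargc1a (left), TPM of Esrrg (middle) and the median TPM of the library (right), 1 point a library, coloured by group, all axes from 0. Perm1 (33.2 to 70.4 TPM) is higher where Ppargc1a and Esrrg are higher, and WT ZT0 replicate 2, the point of the highest median (9.26), has 49.4 TPM of Perm1.

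Among genes of a mean of 5 TPM or more, those most like Esrra over the 12 libraries, the step between its sets included, were Trmt112, Prdx5, Zdhhc6 (r = 0.776, also on chromosome 19), Stk25 (0.767) and Rabl6 (0.761). Those most unlike it were Taf13 (-0.841), S100a1 (-0.813) and Thap4 (-0.809), of which Taf13 moved to -0.467 and S100a1 to -0.402 under median-of-ratios scaling. Most like Ppargc1a were Poldip2 (0.932), Acad9 (0.918), which encodes an assembly factor of respiratory complex I, and Aars2 (0.891), which charges alanine to mitochondrial tRNA. Most like Perm1 were Dlat (0.972), a subunit of the pyruvate dehydrogenase complex, Atp5b (0.972), the catalytic subunit of ATP synthase, and Dnaja3 (0.967), a co-chaperone. Atp5b is also in the list of ERR targets below. Of the regulators, Esrra, Perm1, Tfam and Gabpa reached a mean of 5 TPM, and none of them was among these genes of highest r. Ppargc1a, Nrf1, Esrrg and Ppargc1b lay below that mean and could not be ranked.

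Known ERR targets of oxidative metabolism, 30 genes of fatty acid oxidation, the citric acid cycle and the respiratory chain, showed no shared decrease beside the low Esrra of TG ZT0. There 23 of 30 were higher than in WT ZT0, though none passed the test, with a median difference of 0.050 and single values from -0.062 to 0.22, beside a median of -0.10 over all tested genes. With median-of-ratios scaling all 30 of 30 were higher (median 0.16, all genes -0.0020), and likewise with upper-quartile scaling (median 0.17, all genes 0.0059). At ZT12 5 of 30 were higher, with a median of -0.058 against -0.073 over all genes, and 24 of 30 were higher with a median of 0.034 under median-of-ratios scaling. No member passed the test for genotype at ZT12. The members with the smallest p there were Slc25a20, the carnitine carrier (-0.22, SE 0.15), Etfdh (-0.15, SE 0.14) and Cox6a2, a muscle subunit of cytochrome oxidase (-0.13, SE 0.13). On Esrra within groups 22 of 30 slopes were positive (median 0.090, all genes 0.11), and none passed. The direction depended on the setting: 28 of 30 were positive with median-of-ratios scaling (median 0.14, all genes 0.0054) and 14 of 30 with limma-voom (median -0.015, all genes 0.028). Mfn2, a fusion protein of the outer mitochondrial membrane, had 0.43 (SE 0.23) and Cpt1b, the muscle enzyme of fatty acid import, 0.24 (SE 0.14).

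For time over both genotypes, 1 of the 30 targets rose and none fell, where 0.355% of all tested genes rose and 0.528% fell. Pdk4, the kinase that shuts off pyruvate dehydrogenase, had 20.5, 29.5 and 39.2 TPM in WT ZT0 and 31.0, 21.8 and 31.6 TPM in TG ZT0, against 88.8, 140.8 and 97.8 TPM in WT ZT12 and 71.8, 123.3 and 120.1 TPM in TG ZT12. Every ZT12 library was above every ZT0 library, by 1.86 in WT, 1.84 in TG and 1.85 over both on the log2 scale (adjusted p 0.0178, 0.0162 and 0.000533 in limma). Of all tested genes, 5.62% in WT and 3.21% in TG were higher at ZT12 without overlap, and the share over both genotypes was not counted. The calls within 1 genotype were lost when the 2 groups were fitted alone (adjusted p 0.0724 in WT and 0.0544 in TG), and over 23 alternatives their adjusted p reached 0.119 in WT and 0.148 in TG, whereas over both genotypes it reached 0.0065 over 22 alternatives. Without both doubted libraries the calls within 1 genotype were lost as well (adjusted p 0.0858 in WT and 0.148 in TG). Without the replicates 1, 2 or 3 of WT ZT12 or replicate 1 of WT ZT0, and without any replicate of TG ZT0 or replicates 2 or 3 of TG ZT12, the call of the genotype concerned was lost. The other genes of smallest p over both genotypes were Fabp3 (0.55, SE 0.15, adjusted p 0.197) and Ckmt2 (0.31, SE 0.15, adjusted p 0.792).

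Of the genes linked to PGC-1α in muscle (17 tested of 20 names), none passed a test for genotype, time or slope in the fit of all 12 libraries. Differences between the genotypes at ZT12 had a median of -0.087, with Sirt3 (-0.21, SE 0.17), Cat (-0.24, SE 0.22) and Kyat3 (-0.18, SE 0.19) at the smallest p. For time over both genotypes the median was 0.051 and Ucp3, a mitochondrial uncoupling protein, came first (0.62, SE 0.21, adjusted p 0.3513 in limma), before Slc2a4, the insulin-regulated glucose carrier (-0.23, SE 0.10), and Kyat1 (-0.16, SE 0.082). With the 2 libraries of extreme median TPM left out (WT ZT0 replicate 2, TG ZT12 replicate 1), Ucp3 (0.84, adjusted p 0.0162) and Acsl1, a fatty acid activating enzyme (0.54, adjusted p 0.0363), were called higher at ZT12 in limma, and Ucp3 also without TG ZT12 replicate 1 alone (0.80, adjusted p 0.0279). All 17 had a positive slope on Esrra within groups (median 0.23, all genes 0.11), from 0.060 to 0.51, with Acsl1 (0.48, SE 0.22), Sod2 (0.27, SE 0.14) and Vegfb (0.20, SE 0.11) at the smallest p. It was 17 of 17 with either other scaling and without the libraries of the highest and lowest median TPM, and 13 of 17 with limma-voom, beside 51.1 to 64.6% and 55.1% of all genes. Without both doubted libraries it was 16 of 17 (median 0.80), beside 70.2% of all genes (median 0.41).

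The machinery that copies and transcribes mitochondrial DNA beside TFAM (14 tested genes) had no member past any test. For time Ssbp1, the mitochondrial single-strand binding protein (0.27, SE 0.11, adjusted p 0.6599), Mterf3 (0.21, SE 0.11) and Polrmt, the mitochondrial RNA polymerase (-0.22, SE 0.16), had the smallest p, around a median of 0.0061. At ZT12 genotype differences had a median of -0.095, with Mterf2 (-0.27, SE 0.17), Mgme1 (-0.16, SE 0.16) and Polg2 (-0.16, SE 0.19) first. Slopes on Esrra had a median of 0.15, with Tfb2m at 0.34 (SE 0.16) and Polg2 at -0.35 (SE 0.18).

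Among the partners of NRF1, GABP and PGC-1 (18 tested), 1 rose at ZT12 over both genotypes and none fell, where 0.355% of all tested genes rose and 0.528% fell. This was Thra, a thyroid hormone receptor, with 26.9 to 35.3 TPM in the 6 ZT0 and 40.6 to 53.7 TPM in the 6 ZT12 libraries, a difference of 0.61 (SE 0.085, adjusted p 0.00475 in limma, 0.00164 to 0.0489 over 22 alternatives). The 2 groups of times did not overlap, and the share of all genes of which this held was not counted. Within a genotype, 5.62% of tested genes in WT and 3.21% in TG were higher at ZT12 without overlap. In the files Thra overlaps Nr1d1, the clock gene on the opposite strand, by 1075 bases, and without strand the reads there cannot be told apart. Nr1d1 was itself higher at ZT12, by 2.42 (log2) in TG with the 2 groups alone and by 2.40 in WT without WT ZT0 replicate 1. Its part in the Thra difference was not tested. Ppara (-0.48, SE 0.16, adjusted p 0.3204) and Pprc1, the third PGC-1 family gene (-0.35, SE 0.20), followed. For genotype at ZT12 none passed, with Thra (-0.16, SE 0.12), Rxra (-0.16, SE 0.21) and Nfe2l1 (-0.094, SE 0.15) first. On Esrra 17 of 18 slopes were positive (median 0.30), and 9 of 18 under median-of-ratios scaling, beside 70.8% and 51.1% of all genes.

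Repressors and modifiers of PGC-1 and ERR (13 tested) had no member past a test in the fit of TPM as deposited, and 1 for time under other settings. Nrip1, the corepressor RIP140, had 7.24, 11.5 and 5.72 TPM in WT ZT0, 7.78, 6.30 and 2.29 TPM in TG ZT0, 2.54, 1.83 and 2.58 TPM in WT ZT12 and 1.14, 3.71 and 2.77 TPM in TG ZT12. The times did not overlap in WT, where 5.2% of tested genes were lower at ZT12 in this way, and they did in TG. Over both genotypes the difference was -1.12 (SE 0.27, adjusted p 0.1007 in limma). Nrip1 was called with median-of-ratios scaling (-1.10, adjusted p 0.0212), upper-quartile scaling (-1.10, adjusted p 0.0269), limma-voom (-1.41, adjusted p 0.0344) and without TG ZT0 replicate 3 (-1.34, adjusted p 0.0248), and its adjusted p over all settings ran from 0.0212 to 0.3023. Signals upstream of Ppargc1a (22 tested kinases, phosphatases and factors) had none called with all 12 libraries. For time the first were Mef2c (0.28, SE 0.12, adjusted p 0.6425), Camk2d (0.22, SE 0.13) and Crtc2 (-0.23, SE 0.16). Camk2d, a calcium-dependent kinase, was called without the 2 libraries of extreme median TPM (0.38, adjusted p 0.0165 in limma). Slopes on Esrra were positive in 21 of 22 (median 0.19) beside 70.8% of all genes, and in 17 of 22 (median 0.11) beside 51.1% with median-of-ratios scaling.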

How the data were processed

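Poly(A) RNA was sequenced from 12 muscle libraries with a kit that keeps no strand, per the labels' protocols. Tools named in the submitters' processing notes, without their roles, are STAR, bcl2fastq, DESeq2 and HOMER 4.11.1, with build mm10. The authors deposited TPM for 10475 genes, each at 1 TPM or more in WT ZT0 replicate 1, and 134 of them were at 0 in some library. Further tables give, per the file headers, the authors' log2 fold changes, p-values and adjusted p-values for each time, with coordinates and lengths. Their columns per library are headed FPKM but hold values below 0, so that they were read as log2 values by the authors, and the direction of the fold change (TG over WT) was read from them.

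Depth is not stated. TPM times transcript length gave whole reads (within 0.1, under 500 reads) for 98.6 to 98.9% of values. The 10415 genes that reached 1 TPM in 3 or more libraries were tested with limma 3.58.1 (trend, R 4.3.3) on log2(TPM + 1), which understates changes of low genes, with 4 group means in 1 fit of 12 libraries and Benjamini-Hochberg adjustment over all tested genes at 0.05. The slope on Esrra was fitted with the same group means. Genes named are the 8 regulators, the 3 of smallest p in each list, the 5 most and 3 least like Esrra, the 3 most like Ppargc1a and Perm1, and genes starting within 50 kb of Esrra. Rps6ka4, for its lowest libraries, and Nr1d1, for its overlap with Thra, are named beside these. The 8 regulators and the lists were chosen with earlier results of these data known. Settings tried beside these were upper-quartile or median-of-ratios scaling, pseudocounts of 0.1 and 5, no filter, a filter of 5 TPM, a replicate block, the 2 groups alone, limma-voom on recovered reads, each library left out and, chosen after seeing the data, the 2 libraries of extreme median TPM, or the third of each genotype at ZT12, left out. With the group means taken out, libraries of the same replicate number were little more alike than others over all tested genes. At ZT12, however, the red cell sum was low in replicate 3 of both genotypes (176.3 TPM in WT, 145.0 TPM in TG). Whether replicate numbers mark a shared batch was not tested. No 2 libraries held the same values. The value of 1 list gene that the naming rule covers is not reported here.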

Additional observations from a re-analysis of the deposited data

How the results depend on the processing

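Counts of called genes moved with the scaling. For ZT12 against ZT0 in WT the 12 called genes became 55 with median-of-ratios scaling, 47 with upper-quartile scaling, 56 with limma-voom and 73 without both libraries of extreme median TPM, and the 16 in TG became 31, 29, 28 and 71, and 3 with the 2 groups alone. Over both genotypes the 92 became 204, 192, 194 and 419. Without both libraries Crip1 and S100a4 (2 genes, named after their values were seen) were called for genotype at ZT12, and with the 2 groups alone 1 (Prdx5) at ZT0. Replicate 3 of both ZT12 groups was singled out by the level of Esrra. Without these libraries 35 genes were called for time over both genotypes and 3 (Trmt112, Prdx5 and Mir6988) for genotype at ZT0. For genotype over both times 3 were called, Trmt112 and Prdx5 among them, and Esrra is not evaluated there. The choice of libraries favours Trmt112 and Prdx5, the neighbours of Esrra, so that the calls are no support. Of the 7 regulators other than Esrra 1 was called under any setting, Ppargc1b for time over both genotypes with median-of-ratios scaling (0.35, adjusted p 0.0456 in limma), where the cause was not tested. The correlations with Esrra of Taf13 (-0.467) and S100a1 (-0.402) were nearer to 0 with that scaling. Pdk4 lost its calls within WT and TG with the 2 groups alone (1.86 and 1.84, adjusted p 0.0724 and 0.0544) and without replicate 3 of both ZT12 groups (1.92 and 1.72, adjusted p 0.0858 and 0.148). Fitted with a replicate block, 15, 18 and 96 genes were called for time in WT, in TG and over both, and no call of a regulator changed. With the group means taken out, 18 pairs of libraries of the same number, from different groups, had r from -0.348 to 0.29. Their median was 0.0629, against -0.0157 for 36 other pairs. For 5 of 12 libraries the closest one of another group had the same number. A batch shared by some libraries of the same number was not tested.

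Uncalled values near 0 changed sign. For genotype at ZT12, Tfam was 0.078 with median-of-ratios scaling, 0.057 with upper-quartile scaling and 0.0076 with limma-voom. Without both libraries of extreme median TPM, genotype at ZT12 was 0.091 for Esrrg, 0.16 for Perm1 and 0.11 for Nrf1. Time was then 0.035 for Ppargc1a and 0.061 for Nrf1 in WT, 0.0036 for Ppargc1a, 0.17 for Perm1 and 0.17 for Nrf1 in TG, and 0.019 for Ppargc1a and 0.12 for Nrf1 over both. The change of the genotype difference with time for Gabpa was -0.0022 with median-of-ratios, -0.030 with upper-quartile scaling and -0.018 without both libraries, where Perm1 had 0.033. The slope on Esrra of Esrrg was -0.10, -0.077 and -0.0045 under these settings, and that of Tfam 0.023 with median-of-ratios scaling and 0.022 without both libraries. Without replicate 3 of both ZT12 groups, genotype at ZT12 was -0.090 for Ppargc1a and 0.032 for Tfam, time in WT 0.077 for Ppargc1a, the change of the genotype difference -0.15 for Nrf1 and -0.070 for Gabpa, and the slope of Tfam 0.23.

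With each library left out in turn, called genes ran from 4 (without WT ZT0 replicate 1) to 35 (without TG ZT12 replicate 1) for time in WT, from 6 (without TG ZT0 replicate 2) to 21 (without WT ZT0 replicate 2) in TG, from 47 (without WT ZT12 replicate 3) to 157 (without TG ZT12 replicate 1) over both, and from 0 to 1 for genotype at ZT0. Sign changes for genotype at ZT12 gave Esrrg -0.35 to 0.091, Ppargc1a -0.081 to 0.25, Perm1 -0.37 to 0.16, Nrf1 -0.33 to 0.11 and Tfam -0.041 to 0.039. Sign changes for time in WT gave Esrra -0.56 to 0.027, Ppargc1a -0.18 to 0.077, Perm1 -0.051 to 0.24, Nrf1 -0.37 to 0.061, Tfam -0.037 to 0.11 and Gabpa -0.050 to 0.16. Sign changes for time in TG gave Esrra -0.020 to 0.39, Esrrg -0.19 to 0.25, Ppargc1a -0.32 to 0.017, Perm1 -0.36 to 0.17, Nrf1 -0.26 to 0.17 and Gabpa -0.040 to 0.14. Sign changes for time over both genotypes gave Esrra -0.19 to 0.11, Perm1 -0.13 to 0.14 and Gabpa -0.0053 to 0.10. Sign changes for the change of the genotype difference gave Esrrg -0.44 to 0.0028, Ppargc1a -0.27 to 0.073, Perm1 -0.47 to 0.063, Nrf1 -0.13 to 0.38 and Gabpa -0.11 to 0.11. Sign changes for the slope on Esrra gave Esrrg -0.034 to 0.30 and Tfam -0.084 to 0.045. For genotype at ZT0, Perm1 ran from -0.072 to 0.25, Ppargc1a from -0.0034 to 0.33 and Gabpa from -0.20 to 0.0079. In the comparisons listed here the other regulators kept their sign when a library was left out. Depth limits Nrf1, Ppargc1b and Esrrg most, whose lowest values rest on 65, 82 and 118 reads.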
